A study of Mus musculus with 4 samples.

Results

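Acyl-CoA thioesterases (Acot) are enzymes that split a fatty acyl-CoA into the free fatty acid and coenzyme A. The family was followed here through 10 genes, Acot1, Acot2, Acot3, Acot4, Acot7, Acot8, Acot9, Acot11, Acot12 and Acot13, in the liver of aging mice. Its members were taken as every probe set annotated to 1 gene symbol among these names, which gave 15 probe sets of the 45101 on the array. In genes this is 10 of 18193. All 10 genes passed the filter on level, a mean of at least 3.74 on the log2 scale, which 11587 genes passed. Of the 15 probe sets 13 did.

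The samples were liver RNA of male C57BL/6J mice, an inbred strain, at 4, 8, 13 and 21 months of age. All were fed a low-fat diet ad libitum; they were bought at 4 weeks of age and had eaten this diet for 1 week before the experiment began. Each group is 1 pool of RNA from 6 mice on 1 oligonucleotide array, so the 4 groups have 1 array each and the spread between mice is unknown. The labels name no treatment, mutation or other tissue for these groups, and no test between ages was made. Differences are sizes between 2 pools, and no trend with age was fitted. In a bulk sample, fewer cells of a type and less RNA per cell cannot be told apart. Values are log2 expression, where a difference of 1 is 2-fold, and a gene is called higher or lower from 1.5-fold on. Probe sets differ in how strongly they bind, so a level of 1 gene is not set against that of another.

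The enzymes fall into 2 groups that are not related in structure. Type I enzymes, here Acot1 to Acot4, carry an α/β-hydrolase fold, are close copies of each other and sit in the cytosol, mitochondria or peroxisomes. Type II enzymes, here Acot7 to Acot13, carry hotdog domains. By releasing free acids from CoA esters in a given compartment they set how much acyl-CoA is left for oxidation, lipid synthesis and signalling. In liver, several type I genes and Acot8 are known targets of PPAR-alpha, the nuclear receptor that fatty acids activate during fasting.

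The liver label was checked with 10 hepatocyte markers, of which 8 were measured, all above the filter. Their summed level was 98.1% to 101% of that at 4 months, a sum carried by a few of the brightest probe sets, such as albumin (Alb) at 13.49, 13.43, 13.49 and 13.48. Single markers varied more, with Ass1 at -0.50 for 8 vs 4 months and Fgb at 0.37 for 21 vs 4 months, and none passed 1.5-fold. Over all genes the median difference lay between 0.00 and 0.01 for each of the 6 pairs of ages. The standard deviation over genes was 0.18 to 0.27.

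Acot1, Acot2 and Acot3, which had the largest ranges over the ages in this family, are neighbours on chromosome 12 together with Acot4. In the RefSeq gene order of that chromosome Acot2, Acot1, Acot4 and Acot3 follow each other without another protein-coding gene between them, and Acot5 and Acot6 come next. The 250 bases before the start of each of these 4 genes are shown because all 4 were lowest at 21 months. Their highest age differed, 8 months for Acot1 and Acot2 and 13 months for Acot3 and Acot4. AGGTCA was marked since PPAR-alpha with its partner RXR binds repeats of it. A link between such sites and the course with age was not tested. Sequences are from RefSeq, build GRCm38.p6, all on the plus strand, and capitals mark AGGTCA read on either strand.
Acot1 chr12:84009252-84009501: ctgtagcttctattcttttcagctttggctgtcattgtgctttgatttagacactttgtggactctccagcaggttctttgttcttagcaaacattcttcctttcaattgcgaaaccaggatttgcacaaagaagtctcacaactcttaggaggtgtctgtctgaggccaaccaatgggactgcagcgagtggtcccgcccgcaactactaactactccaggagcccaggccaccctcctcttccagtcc
Acot2 chr12:83987611-83987860: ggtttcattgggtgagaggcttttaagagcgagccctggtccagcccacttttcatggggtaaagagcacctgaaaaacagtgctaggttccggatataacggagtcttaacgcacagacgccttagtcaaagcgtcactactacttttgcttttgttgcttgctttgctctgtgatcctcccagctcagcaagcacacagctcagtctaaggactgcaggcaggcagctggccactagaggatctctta
Acot3 chr12:84051894-84052143: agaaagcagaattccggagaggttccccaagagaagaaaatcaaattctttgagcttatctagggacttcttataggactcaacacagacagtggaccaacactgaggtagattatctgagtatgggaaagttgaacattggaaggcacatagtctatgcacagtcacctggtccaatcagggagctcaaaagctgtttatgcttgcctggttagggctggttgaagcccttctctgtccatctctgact
Acot4 chr12:84038129-84038378: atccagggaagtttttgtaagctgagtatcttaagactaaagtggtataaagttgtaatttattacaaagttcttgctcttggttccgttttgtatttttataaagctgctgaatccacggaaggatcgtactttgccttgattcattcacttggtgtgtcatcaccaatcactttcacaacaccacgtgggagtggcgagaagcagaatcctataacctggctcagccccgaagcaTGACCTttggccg
Promoter entries were matched by symbol for 9 of the 10 members, with 11 windows, since Acot3 and Acot11 have 2 annotated starts each. AGGTCA on either strand was in 2 of the 11 windows, that of Acot4, beginning 13 bases before the start, and that of Acot12, beginning 110 bases before it, both on the reverse strand as TGACCT. Of all 32851 windows of this length 14% hold it. The full repeat, AGGTCA followed by any base and AGGTCA again, was in none of the members' windows and in 0.0335% of all windows. A match is a description of these letters, and its absence from a window says nothing of sites elsewhere. The 4 windows of the chromosome 12 genes shown above had 42.4% to 50.4% G and C, where the median of all windows was 52.4%.

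Acot1 encodes the cytosolic type I enzyme that acts on long-chain acyl-CoA. Its probe set, 1449065_at, was at 8.63, 9.21, 9.04 and 7.66 at 4, 8, 13 and 21 months. The 8-month and 13-month pools lay above the 4-month pool, and the 21-month pool lay below all others. The difference from 4 months was 0.58 at 8 months, 1.49-fold and just under the 1.5-fold rule, and 0.41 at 13 months. At 21 months Acot1 was 1.96-fold below 4 months (-0.97), 2.93-fold below 8 months (-1.55) and 2.60-fold below 13 months (-1.38). Among 11587 genes these 3 differences were the 5th, 4th and 3rd lowest.

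Acot3 encodes a peroxisomal type I enzyme. Its probe set, 1422925_s_at, was at 7.95, 8.46, 8.97 and 7.31. Unlike Acot1, it was highest at 13 months, 2.03-fold above 4 months (1.02), the 19th highest difference of all genes in this pair of ages. At 21 months it was 3.16-fold below 13 months (-1.66), the lowest difference of all 11587 genes in this pair of ages. Against 8 months it was 2.22-fold lower (-1.15), and against 4 months 1.56-fold lower (-0.64). The suffix _s_at marks probes that can match more than 1 transcript, so other type I copies may add to this value, and Acot3 has no other probe set of 1 symbol.

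Acot2, the type I enzyme of the mitochondrial matrix, followed with smaller differences. The brighter of its 2 probe sets, 1439478_at, was at 7.00, 7.36, 7.24 and 6.57, and the dimmer, 1422996_at, at 4.35, 4.86, 5.03 and 4.12. Both were lowest at 21 months, but the brighter was highest at 8 and the dimmer at 13 months. By the brighter set Acot2 was 1.73-fold lower at 21 than at 8 months (-0.79) and 1.59-fold lower than at 13 months (-0.67). Against 4 months it differed by -0.43, within 1.5-fold.

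Acot4, a peroxisomal type I enzyme that splits succinyl-CoA, was at 6.33, 6.61, 6.85 and 6.29 by probe set 1422076_at. The second probe set, 1422077_at, gave 5.03, 5.26, 5.34 and 4.84. Both peaked at 13 months and were lowest at 21 months. The difference of 21 vs 13 months was -0.56 and -0.50, short of 1.5-fold, and 21 and 4 months differed by -0.04 and -0.19.

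Across the type I genes all 6 probe sets of 1 symbol were above their 4-month value at 8 and at 13 months and lowest at 21 months. These probe sets are not replicates, since type I copies are alike in sequence and some probes may bind several of them. One more probe set, 1422997_s_at, is annotated to both Acot2 and Acot1 and is no member by the rule. It was at 8.30, 8.94, 8.76 and 7.11, the same order of ages as Acot1. The median over the 4 type I genes was 0.43 at 8 vs 4 months, 0.46 at 13 vs 4, -0.54 at 21 vs 4, -0.97 at 21 vs 8 and -1.02 at 21 vs 13 months.

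**Figure D1:**
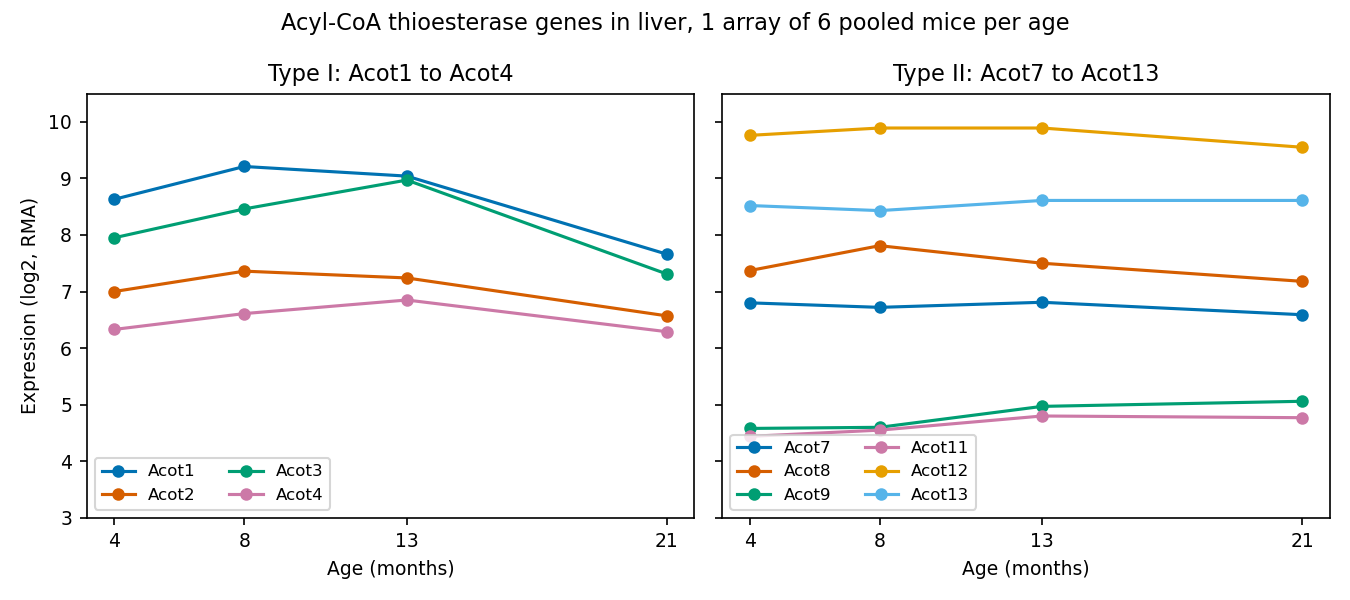
Log2 expression (y axis) of the 10 Acot genes against age in months (x axis), 1 point per array and gene, type I genes on the left and type II genes on the right. Acot1 and Acot3 go from 9.04 and 8.97 at 13 months to 7.66 and 7.31 at 21 months, while Acot13 stays between 8.43 and 8.61; levels of different genes are not comparable.

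Among type II genes Acot8 came nearest to this course. It encodes a peroxisomal thioesterase of broad substrate range that helps to end peroxisomal oxidation. Its probe set was at 7.37, 7.81, 7.50 and 7.18, highest at 8 and lowest at 21 months. It was 0.44 above 4 months at 8 months and 1.55-fold lower at 21 than at 8 months (-0.63). At 21 vs 13 and 21 vs 4 months it differed by -0.32 and -0.19.

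Acot12, a cytosolic enzyme that splits acetyl-CoA and is strong in liver, was at 9.76, 9.89, 9.89 and 9.55 by its brightest probe set. A second set was at 8.05, 8.00, 7.99 and 7.81, and the last lay below the filter, at 2.32 to 2.43. Both sets above the filter were lowest at 21 months, and the first was 0.34 below both 8 and 13 months. The second set was not above its 4-month value at 8 or 13 months, so the higher middle ages rest on 1 probe set here. Acot7, a cytosolic long-chain thioesterase best known from brain, was at 6.80, 6.72, 6.81 and 6.59, also lowest at 21 months.

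The other type II genes were not lowest at 21 months. Acot9, a mitochondrial enzyme, was at 4.58, 4.60, 4.97 and 5.06, with the 13-month and 21-month pools above the younger pair and a difference of 0.48 at 21 vs 4 months. A probe set shared by Acot10 and Acot9 was at 4.45, 4.73, 4.65 and 4.95, also highest at 21 months but above 4 months already at 8 months. Acot11, which carries a lipid-binding START domain and is known from brown fat, was at 4.44, 4.55, 4.80 and 4.77, and its dimmer set, below the filter on average, at 3.36, 3.50, 3.68 and 3.50. Acot13, a small mitochondria-associated enzyme that binds the phosphatidylcholine transfer protein Pctp, varied least, at 8.52, 8.43, 8.61 and 8.61. Its range of 0.18 was exceeded by 59.9% of all genes.

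Macrophage markers also differed between ages. All 10 were measured above the filter, and their summed level was 2851, 2081, 2926 and 4648 at 4, 8, 13 and 21 months on the linear scale. At 21 vs 4 months 6 of the 10 passed 1.5-fold as higher (median 0.67), beside 2.11% of all genes. At 21 vs 8 months all 10 did (median 1.17), beside 2.66%, and at 21 vs 13 months 7 did (median 0.65), beside 1.47%. At 8 vs 4 months 1 was lower (0.354%), with a median of -0.45. At 13 vs 4 months 1 was higher (0.837%), with a median of 0.09, and at 13 vs 8 months 4 were higher (0.716%), with a median of 0.51. For Acot9 and Acot11 the differences were 0.48 and 0.33 at 21 vs 4 months, and 0.46 and 0.22 at 21 vs 8 months. They were 0.09 and -0.03 at 21 vs 13 months, and 0.02 and 0.11 at 8 vs 4 months. At 13 vs 4 months they were 0.39 and 0.36, and at 13 vs 8 months 0.37 and 0.25. The part of these cells in any Acot value was not tested. Of 6 markers of brown fat the defining gene Ucp1, Cox7a1 and Cox8b lay below the filter. Of the other 3, Cidea, which coats lipid droplets and is also expressed in fatty liver, was at 2.69, 3.87, 3.84 and 6.71. Its mean passed the filter of 3.74, but its 4-month value lay below that level and its 8-month and 13-month values close to it. At 21 vs 4 months Elovl3 differed by -0.69 and Dio2 by 0.01.

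Counted over the family, differences concentrated in comparisons with the 21-month pool and were toward lower expression. At 8 vs 4 months none of the 10 genes was at least 1.5-fold higher, beside 0.501% of all genes, and none lower, beside 0.354%. At 13 vs 4 months 1 of 10, Acot3, was higher, where 0.837% of all genes were, and none was lower (0.457%). At 13 vs 8 months none passed either way, with 0.716% of all genes higher and 0.362% lower. At 21 vs 4 months 2 of 10, Acot1 and Acot3, were lower beside 0.423% of all genes, and none was higher beside 2.11%. At 21 vs 8 months 4 of 10, Acot1, Acot2, Acot3 and Acot8, were lower beside 0.699%, and none higher beside 2.66%. At 21 vs 13 months 3 of 10, Acot1, Acot2 and Acot3, were lower beside 0.457% of all genes, and none higher beside 1.47%. At the stricter rule of 2-fold, Acot3 was higher at 13 vs 4 months beside 0.181% of all genes, and Acot1 and Acot3 were lower at 21 vs 8 months, beside 0.129%, and at 21 vs 13 months, beside 0.0518%. None was 2-fold lower at 21 vs 4 months, beside 0.0345%.

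A looser rule, a log2 difference of 0.322, brought in other members. As higher it took Acot1, Acot2, Acot3 and Acot8 at 8 vs 4 months, beside 3.24% of all genes, and Acot1, Acot3, Acot4, Acot9 and Acot11 at 13 vs 4 months, beside 3.98%. It also took Acot3 and Acot9 at 13 vs 8 months (3.92%), Acot9 and Acot11 at 21 vs 4 months (6.14%) and Acot9 at 21 vs 8 months (7.56%). As lower at 21 vs 13 months it took Acot1 to Acot4 and Acot12, beside 3.44%, where Acot8 at -0.32 fell just short. As lower at 21 vs 4 months it took Acot1, Acot2 and Acot3, beside 3.17%, and at 21 vs 8 months Acot1, Acot2, Acot3, Acot8 and Acot12, beside 4.73%.

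The family medians, read against 0.00 to 0.01 over all genes, were 0.21 at 8 vs 4 months, 0.30 at 13 vs 4, 0.14 at 13 vs 8, -0.20 at 21 vs 4, -0.33 at 21 vs 8 and -0.33 at 21 vs 13 months. At 13 months all 10 genes lay above their 4-month value, by 0.01 to 1.02, as did 5926 of all 11587 genes. The second probe set of Acot12 did not, at -0.06. For 7 of the 10 genes the 21-month pool was below every other age, which held for 25.1% of all genes. The 3 comparisons with 21 months share that array, and those with 4 months share the 4-month array, so a deviation of 1 pool enters several of them. Neither the hour of collection nor the feeding state at that hour is given in the labels.

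**Figure D2:**
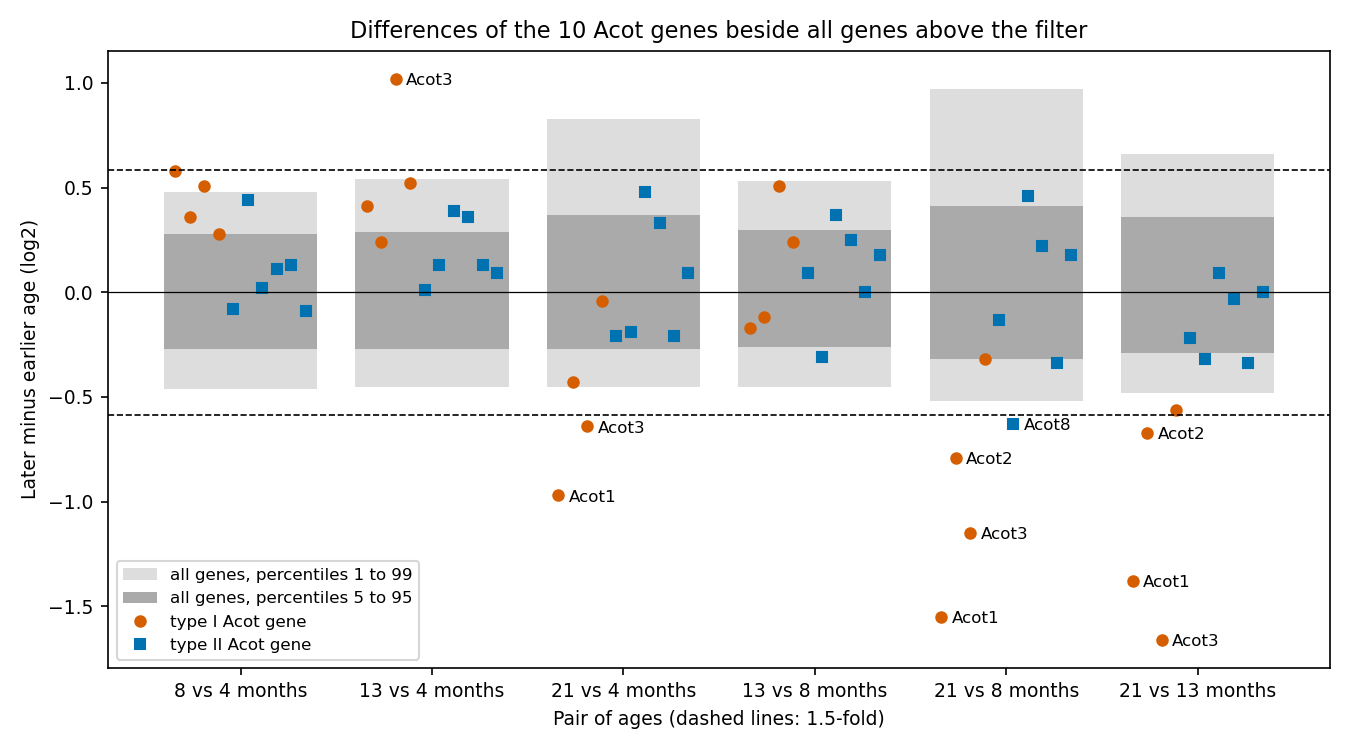
Log2 difference, later minus earlier age (y axis), for the 6 pairs of ages (x axis), with circles for type I and squares for type II Acot genes, grey bands for percentiles 1 to 99 and 5 to 95 of all 11587 genes, and dashed lines at 1.5-fold. Genes past 1.5-fold are named; at 21 vs 13 months Acot3 is at -1.66 and Acot1 at -1.38, where percentile 1 of all genes is -0.48.

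Ordered by range over the 4 ages, the type I genes and Acot8 came first. Acot3 spanned 1.66, Acot1 1.55, Acot2 0.79, Acot8 0.63 and Acot4 0.56, and Acot9 followed with 0.48, Acot11 0.36, Acot12 0.34, Acot7 0.22 and Acot13 0.18. Larger ranges were found in 0.181% of all genes for Acot3, 0.328% for Acot1, 2.51% for Acot2, 4.30% for Acot8 and 5.90% for Acot4. Without the 13-month array the range of Acot3 was 1.15, and without the 8-month array that of Acot8 was 0.32. With no spread between pools, neighbours in this order such as Acot8 and Acot4 cannot be told apart.

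The genes whose course over the 4 arrays was nearest to that of Acot1 were sought among all genes, by the root mean square distance of their deviations from their own means. The 8 nearest were Cyp26b1 (0.188), Pdk4 (0.203), Ugt2b38 (0.206), Csad (0.207), Chrna2 (0.223), Spc25 (0.240), Cyp4a31 (0.260) and Fgf21 (0.267). Cyp26b1 degrades retinoic acid and was at 5.21, 5.96, 5.81 and 4.76. Pdk4, a kinase that blocks pyruvate entry into the citric acid cycle in fasting, was at 4.69, 5.23, 5.17 and 4.19. Csad, an enzyme of taurine synthesis, was at 9.84, 10.07, 10.05 and 9.07. Fgf21, a hormone the liver releases in fasting, was at 4.93, 5.23, 5.22 and 4.40. Acot3 came 9th at 0.272 and Acot2 14th at 0.301, Acot8 69th and Acot4 190th. Scaling to unit range was done only for genes that spanned at least 1.5-fold over the ages, which leaves out Acot4. Among those genes Slc22a5, a carnitine transporter, and Acot2 were nearest. Only 1 of the 8 genes above, Fgf21, was then among the 8 nearest.

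**Figure D3:**
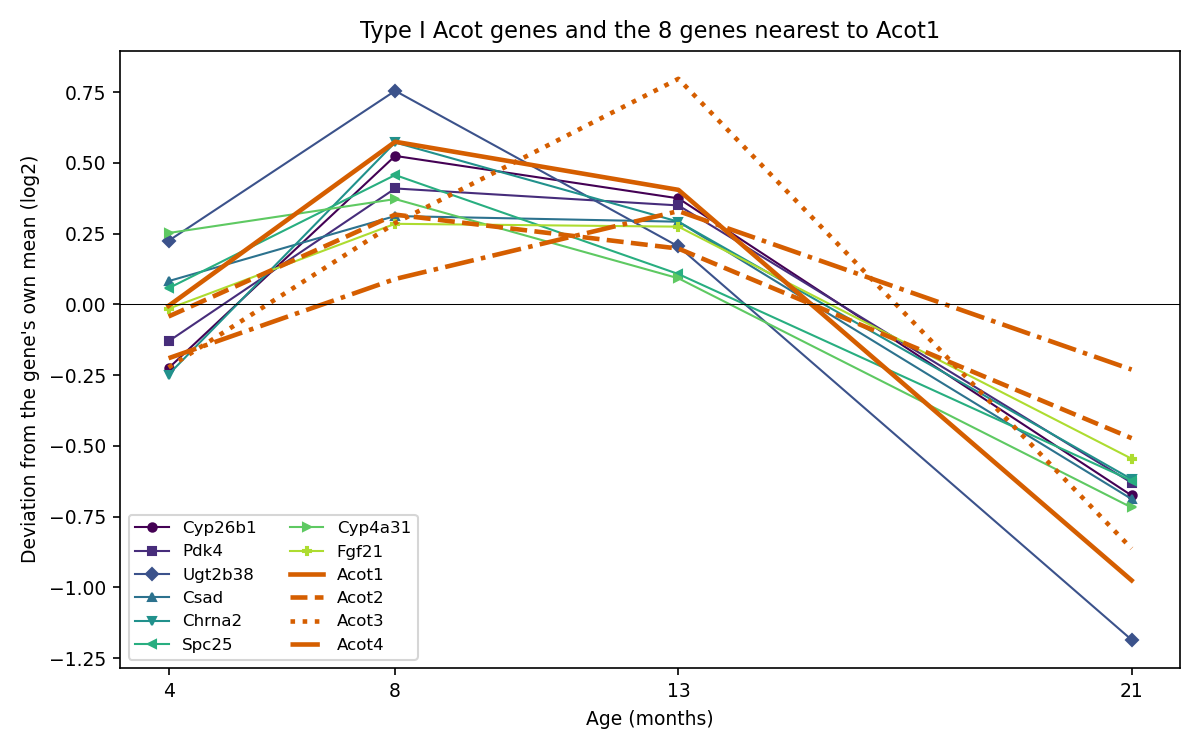
Deviation of each gene from its own mean over the arrays (log2, y axis) against age in months (x axis), for Acot1 to Acot4 (thick orange lines) and the 8 genes nearest to Acot1 (thin lines). Acot1 and the 8 genes are highest at 8 months and lowest at 21 months, and Acot3 and Acot4 are highest at 13 months.

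Other genes of acyl-CoA metabolism were read from lists chosen by function, some of which share genes. Of 16 listed PPAR-alpha targets 13 were measured. At 21 vs 13 months 4 of them were at least 1.5-fold lower (0.457% of all genes) and none higher (1.47%), with a median of -0.37. At 21 vs 8 months 5 were lower (0.699%) and none higher (2.66%), with a median of -0.38. At 21 vs 4 months 3 listed members were lower (0.423%) and 1 higher (2.11%), with a median of -0.29. Pdk4 was at -0.98 at 21 vs 13 months, Fgf21 at -0.82, and the fatty acid ω-hydroxylases Cyp4a31 and Cyp4a14 at -0.81 and -0.70. Pex11a, a factor of peroxisome division, was at -0.63 at 21 vs 8 months. Angptl4, an inhibitor of lipoprotein lipase, was at -0.67 at 21 vs 4 months, but the mean of all its probe sets gave -0.175, within 1.5-fold. Cd36, a fatty acid transporter, was higher at 21 than at 4 months, by 0.62. At 8 vs 4 months 12 of the 13 were above 0, where 5507 of all 11587 genes were, with a median of 0.21. None passed 1.5-fold in that pair, beside 0.501% of all genes higher and 0.354% lower. Ppara itself was at 9.71, 9.84, 9.65 and 9.51. None of the 7 measured regulators passed 1.5-fold in any pair of ages, where 0.354% to 2.66% of all genes did in a given direction.

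Genes of fatty acid oxidation were mostly lower at 21 months too. Among 13 measured genes of peroxisomal oxidation, all were below their 4-month value at 21 months, by 0.05 to 0.34. Of all 11587 genes 5237 were. The median was -0.13, and none reached 1.5-fold, beside 0.423% of all genes lower and 2.11% higher. At 21 vs 8 months the median was -0.21, and 1 member, Pex11a, was lower past 1.5-fold (0.699% of all genes). Ehhadh, the bifunctional enzyme of that pathway, was at 11.33, 11.54, 11.50 and 10.99, a difference of -0.55 at 21 vs 8 months, where type I Acot4 differed by -0.32. For 14 genes of mitochondrial β-oxidation the median was -0.15 at 21 vs 13 months and 0.09 at 13 vs 4 months. At 13 vs 4 months all 14 were above 0, as were 5926 of all 11587 genes. No member of that list passed 1.5-fold in any pair of ages, where 0.354% to 2.66% of all genes did in a given direction. Its largest difference at 21 vs 4 months was that of Hadha, at -0.25, and its highest that of Echs1, at 0.14.

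Enzymes of the opposite reaction are the acyl-CoA synthetases. None of the 13 above the filter passed 1.5-fold in any pair of ages. Of all genes 0.354% to 2.66% passed in a given direction, so no call among so few genes is near that share. The median was 0.02 at 21 vs 13 and -0.03 at 21 vs 4 months. The largest difference was that of Acss2, which makes acetyl-CoA from acetate, at -0.56 for 8 vs 4 months; at 21 vs 4 months the list ran from Acsf3 at -0.27 to Acsl3 at 0.29. Of 13 genes of CoA synthesis and breakdown none passed either, beside the same shares of all genes, with a median of -0.09 at 21 vs 13 months. Vnn1, which frees pantothenate for CoA synthesis, had the largest difference, 0.58 at 8 vs 4 months. In the list of acyl-CoA binding and transport 1 of 15, the peroxisomal transporter Abcd2, was higher at 21 than at 8 months, at 0.63. Of all genes 2.66% were, so 1 call in a list of this length is not set apart from that share. The mean of all Abcd2 probe sets gave 0.333, within 1.5-fold. Pctp, the partner of Acot13, was at 8.79, 8.81, 8.61 and 8.46.

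Other thioesterases outside the members were read in the same way. Of 11 listed, 10 were measured and 7 were above the filter. None passed 1.5-fold in any pair of ages, which is near the 0.354% to 2.66% of all genes that did in a given direction. Them4, a mitochondrial hotdog thioesterase, was at -0.44 for 21 vs 13 months, and Ppt1, the lysosomal palmitoyl-protein thioesterase, at 0.28. Acot6, the type I neighbour of the cluster, was at 4.29, 4.47, 4.37 and 4.37 by its brighter probe set. Its dimmer set, below the filter on average, was at 3.34, 3.60, 3.82 and 3.32. That set was lowest at 21 months, as the type I members were, so the 2 sets of Acot6 disagree. Acot5, next to it, lay below the filter, at 2.53 to 2.70, and was highest at 21 months. Without detection calls, values below the filter such as these of Acot5 and of the dimmer Acot6 set cannot be told from background.

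**Figure D4:**
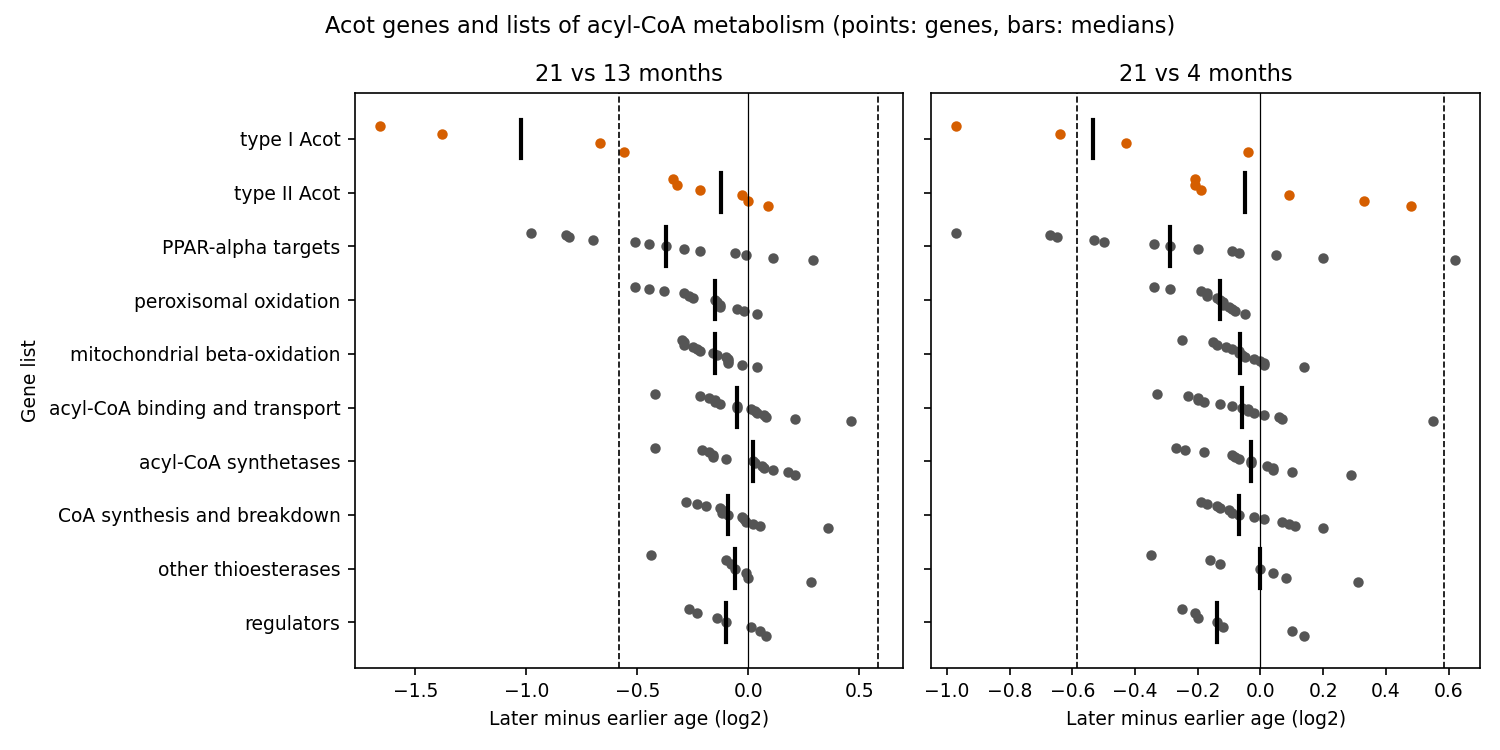
Log2 difference, later minus earlier age (x axis), of each gene above the filter in 10 gene groups (y axis) for 21 vs 13 months (left) and 21 vs 4 months (right), with bars for group medians and dashed lines at 1.5-fold. The type I Acot genes have a median of -1.02 at 21 vs 13 months, PPAR-alpha targets -0.37 and acyl-CoA synthetases 0.02.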

How the data were processed

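Per the labels' protocols, Trizol was used for extraction and biotin for labelling; each array holds a pool from 6 mice, per the series description. The deposited values are log2 expression values made with RMA, per the submitters' processing notes. RMA corrects background, brings the arrays to like distributions and summarises probes, so a change common to most genes of a pool is hidden, and differences of dim probe sets are compressed. Its version, and which arrays went through it together, were not given in the sources used here. No detection calls were used.

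Names came from the platform annotation; 34945 had 1 symbol, 932 several, and 64 were controls and left out. For each gene the probe set with the highest mean was used, and genes with a mean of at least 3.74, the median of all probe set means, were kept. Groups came from the labelled age. No test was run, since each age has 1 array. The number of arrays limits the precision. Genes were called at 1.5-fold, each count beside the share of all 11587 genes. Named were all members, up to 6 genes per list past 1.5-fold or else the extremes of the list at 21 vs 4 months, the 8 genes nearest to Acot1, and tissue markers; others named were chosen after their values were seen. Nearness was a root mean square distance over 4 arrays. Members and lists were chosen with earlier results of these data known. Alternatives were the mean over probe sets, no _s_at or _x_at sets, other filters, thresholds and normalizations, and ranges without 1 array. Promoter windows came from RefSeq, build GRCm38.p6; protein sequences were not compared here. The counting steps were tested on simulated data. Alternative normalizations ran in limma 3.58.1 under R 4.3.3, and everything else in Python 3.11.15 with pandas 2.3.3, numpy 2.4.6 and matplotlib 3.10.9.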

Additional observations from a re-analysis of the deposited data

How the results depend on the processing

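No paired analysis was possible because each age has 1 array. The number of members called at 8 vs 4 months was 0, and 1 with quantile normalization and 1 with cyclic loess, where Acot1 was at 0.598 and 0.601. With quantile normalization Acot4 also passed as lower at 21 vs 13 months, at -0.59. Without probe sets ending in _s_at or _x_at Acot3 has no value, which leaves 0 members higher at 13 vs 4 months and 1 lower at 21 vs 4 months. Acot3 then also drops out of the members called lower at 21 vs 8 and at 21 vs 13 months, at both 1.5-fold and 2-fold. The filter at the 75th percentile leaves out Acot9 and Acot11, neither of which was called.

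At a threshold of 2-fold 0 members were lower at 21 vs 4 months and 2 at 21 vs 8 months. At a log2 difference of 0.322 as the threshold 4 members were higher at 8 vs 4 months, 5 at 13 vs 4, 2 at 21 vs 4, 2 at 13 vs 8 and 1 at 21 vs 8 months, and 3 were lower at 21 vs 4, 5 at 21 vs 8 and 5 at 21 vs 13 months. As the mean over both probe sets Acot2 was 0.46 above 4 months at 13 months, against 0.24. Without the 13-month array the range of Acot3 over the ages was 1.15, against 1.66, and without the 8-month array that of Acot8 was 0.32, against 0.63. Other differences of single members moved by less than the spread over genes of that pair of ages under the alternatives run, and no called difference of a member changed sign. With 1 array per age, none of these settings speaks to the spread between mice.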

Other observations

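Beyond the genes nearest to Acot1, the same distance was taken from the other type I genes, a choice made after the values were seen. The nearest to Acot3 was Onecut1, a hepatocyte transcription factor, at 5.39, 6.15, 6.28 and 5.23 with a distance of 0.234, and Acot1 came 4th at 0.272. The nearest to Acot2 was Hspb1, a small heat shock protein, at 8.48, 8.86, 8.72 and 8.05, with a distance of 0.00866. Rab30, a small GTPase, came next at 0.0328. Slc22a5, which brings carnitine into cells, was 4th at 0.0512 with levels of 8.36, 8.64, 8.51 and 7.96. The nearest to Acot4 was Arhgef16, at 4.80, 5.11, 5.39 and 4.82, with a distance of 0.0274. Genes with small ranges have small distances to many others, so distances are not compared between the 3 genes.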
